A study of Homo sapiens with 9 samples.

Results

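The genes described here are *FOS*, *FOSB*, *FOSL1*, *FOSL2*, *JUN*, *JUNB*, *JUND*, *ATF3*, *EGR1* and *MAFF*, which encode subunits of the transcription factor AP-1 and related factors of the immediate early response. They were chosen by name, found by gene identifier in all 9 libraries, and make up 10 of the 60708 genes counted. The data are RNA-sequencing counts from cells described as untreated MDA-MB-231 cells, an established triple-negative, basal breast cancer line with mesenchymal features. By their labels, 3 of the 9 libraries came from WT cells, 3 from clone CS16 and 3 from clone CS19, and the 6 clone libraries carried the *SNAI1*-KO genotype. To make the clones, the study introduced Cas9, a pool of guide RNAs against *SNAI1* and donor plasmids for homology-directed repair into MDA-MB-231 cells, selected with puromycin and grew colonies from single cells. Each of CS16 and CS19 is thus 1 clone, which limits it as a model of the knockout. All groups were grown in DMEM with serum and antibiotics. The labels number the replicates but do not say whether they came from separate cultures, so p-values measure only the spread between these libraries.

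AP-1 is a dimer of bZIP proteins, which grip DNA through a basic region and pair through a leucine zipper. FOS proteins cannot pair with each other and need a JUN partner, whereas JUN proteins can also pair among themselves. The dimers bind the sequence TGACTCA, and JUN paired with ATF proteins favours TGACGTCA. Serum and growth factors switch on *FOS*, *EGR1* and other immediate early genes within minutes through ERK kinases, serum response factor and ternary complex factors, whereas *FOSL1* and *FOSL2* follow later and stay high where RAS-ERK signaling is sustained. In invasive breast cancer cells *FOSL1* is known as a driver of mesenchymal gene expression and of matrix proteases.

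The libraries held between 19527195 and 28627777 counted read pairs, and 3 counts, used here as the limit of detection, were 0.105 to 0.154 CPM (read counts scaled to a common library size, per 1000000 counts). WT replicate 2 stood apart from the other WT libraries. Its counts were far from those of WT replicates 1 and 3, at 188 and 230.2 chi-square units per degree of freedom, while replicates 1 and 3 were 14.6 units apart. Mitochondrial genes took 2.40% of its counts, 0.795% and 0.645% in the other WT libraries and at most 0.498% in the clones. Its levels also moved with the GC content of genes. Relative to the mean of WT replicates 1 and 3, its median ratio was 0.56 in the lowest of 4 equal bins of genes by GC content, and 0.819, 1.21 and 1.95 in the next bins. Of the 10 AP-1 and immediate early genes, 6 lay in the highest bin and 3 in the third. Values of named genes that moved by over 1.5 times, or calls that changed, without WT replicate 2 are therefore given both ways. The part of GC content and RNA quality in its values was not tested.

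The labels of the clones were checked against marker genes. *SNAI1*, the zinc-finger repressor that was targeted, had 0.789, 2.17 and 1.08 CPM in the libraries labelled WT, 1.27, 1.91 and 1.95 CPM in those labelled CS16, and 2.59, 4.08 and 3.08 CPM in those labelled CS19. It was thus not lower in the libraries labelled *SNAI1*-KO (log2 fold change 0.89 ± 0.42 SE, adjusted p = 0.0838). Without WT replicate 2 the log2 fold change was 1.41 (adjusted p = 0.0146), and without CS16 replicate 1 it was 1.03 (adjusted p = 0.0454), and with no filter on low counts it was 1.01 (adjusted p = 0.0459), so that *SNAI1* passed as higher in each case. A count over all its exons does not show whether part of the gene is missing. The 3 9p21 genes *CDKN2A*, *CDKN2B* and *MTAP*, whose loss is a known feature of MDA-MB-231, had 0 counts in all WT libraries but summed to between 164 and 182 CPM in the clones, with *MTAP* the most abundant. All 11 markers of MDA-MB-231 were lower in the clones. They summed to 8168, 8748 and 8781 CPM in the WT libraries, with *AXL* the most abundant, and to between 538 and 716 CPM in the clones, with *VIM* the most abundant. *CD44* and *KRT7* did not exceed 3 counts in any clone library. The 8 neuroendocrine and neuronal markers summed to between 66.9 and 99.4 CPM in WT, led by *ENO2*, and between 142 and 184 CPM in the clones, led by *NEFL*, and they did not move together. *ENO2*, with 75.4 ± 16.9 CPM in WT (SD, n = 3), fell. CS16 libraries averaged 1.57 ± 0.17 CPM and CS19 libraries 9.21 ± 0.70 CPM (n = 3 each), with a log2 fold change of -3.80 ± 0.60 (SE, adjusted p = 0.000167) for both clones. *NEFL*, *NEFM* and *INSM1* had 0 counts in all WT libraries and were detected in every clone library. *STMN2* did not exceed 3 counts in WT or CS19 and reached 0.196 CPM in 1 CS16 library. The 9 embryonic kidney markers summed to between 74.8 and 111.9 CPM in WT and between 128 and 147 CPM in the clones. Among them, *PAX2*, *SALL1* and *LHX1* did not exceed 3 counts in WT, nor did *PAX8* and *OSR1* in the clones. The 10 luminal markers summed to between 1047 and 1640 CPM in WT, led by *KRT8*, and between 194 and 224 CPM in the clones, led by *XBP1*. The sums of the haematopoietic, melanocytic and hepatocyte lists were higher in every WT library than in any clone library, but each sum in WT was nearly all 1 gene. In WT replicate 1 *CD74* gave 188.7 of 190.8 CPM, *MITF* 39.3 of 41.4 CPM and *SERPINA1* 28.9 of 29.2 CPM. Other members rose in the clones, such as *CORO1A* in the haematopoietic list (log2 fold change 1.03, adjusted p = 0.00476) and *DCT* in the melanocytic list (2.38, adjusted p = 0.00337). For *DCT* the log2 fold change was 3.78 (adjusted p = 0.000249) without WT replicate 2. The fibroblast list summed to 64.9, 127.6 and 58.4 CPM in WT, 64.3, 67.98 and 64.0 CPM in CS16 and between 12.9 and 15.8 CPM in CS19, so that without WT replicate 2 its highest sum was in CS16. In that list *COL1A2*, at 55.4 ± 21.8 CPM (SD, n = 3) in WT, had 0 counts in the clones, while *COL3A1*, at 0.598 ± 0.189 CPM in WT, rose, with a mean of 56.5 ± 2.4 CPM over the CS16 libraries and of 6.26 ± 0.76 CPM over those of CS19 (n = 3 each). The study also examined the clones by quantitative RT-PCR and immunoblotting, which were not analysed here. In these counts a difference in the cells behind the labels and the loss of *SNAI1* cannot be told apart. Every comparison below is therefore between libraries as labelled, and in bulk RNA fewer cells that express a gene and less RNA per cell cannot be told apart.

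Members of this family differ in what lies before their transcription start. RefSeq promoter windows of 300 bases (GRCh38.p14) ran from 250 bases before the start to 50 after it. They were matched for 9 of the 10 genes, all but *FOSL1*. The windows were searched on both strands for TGACTCA, TGACGTCA and the CArG box, the site of serum response factor. These occur in 4.95%, 1.85% and 1.29% of all 35116 windows, and the 3 motifs do not overlap in the windows shown. *FOSL2*, *JUND*, *EGR1* and *MAFF* held a match and the other 5 matched genes none within these windows. Sites farther from the start were not searched. The stretches around the matches are shown because 3 of these 4 genes are among those with the calls described below; capitals mark the match.
*FOSL2* (chr2:28392852-28392878, plus strand, TGACTCA at 5 to 11 bases after the start): gccattgtagTGACTCAtctcgggcag
*JUND* (chr19:18281795-18281842, minus strand, TGACGTCA at 200 to 193 bases before the start): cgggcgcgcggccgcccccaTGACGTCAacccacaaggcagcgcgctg
*EGR1* (chr5:138465354-138465425, plus strand, CArG boxes at 105 to 96 and 83 to 74 bases before the start): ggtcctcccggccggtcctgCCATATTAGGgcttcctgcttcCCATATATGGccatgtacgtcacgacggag
*MAFF* (chr22:38201920-38201967, plus strand, TGACGTCA at 54 to 47 bases before the start): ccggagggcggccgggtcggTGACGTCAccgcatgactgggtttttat
A match is a stretch of letters and not a measured binding site.

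Most of the family was lower in the libraries labelled *SNAI1*-KO. With the cut-offs of the study (an adjusted p below 0.05 and a log2 fold change of 2 or more, up or down), 6 of the 10 genes were lower in the 6 *SNAI1*-KO than in the 3 WT libraries, namely *FOSB*, *FOSL1*, *FOSL2*, *JUNB*, *EGR1* and *MAFF*, and 0 were higher. The test was the quasi-likelihood test of edgeR, with p adjusted by Benjamini-Hochberg over all 19631 genes tested, of which 14.3% were lower and 12.6% higher by the same rule. On the adjusted p alone 8 genes fell and 1, *ATF3*, rose, against 32.6% and 31.1% of all genes. The median log2 fold change over the 10 genes was -2.28, and over all genes tested it was -0.004. Without WT replicate 2, 3 of the 10 genes (*FOSL1*, *FOSL2* and *MAFF*) passed both cut-offs, and the same number as before passed the adjusted p in each direction. The median was then -1.62, and over all genes tested it was 0.036. With all libraries, DESeq2 gave no adjusted p for *FOSL1*, *JUND* and *EGR1*, and called 4 genes lower. The share of all genes called was not counted without WT replicate 2 or for DESeq2.

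**Figure D1:**
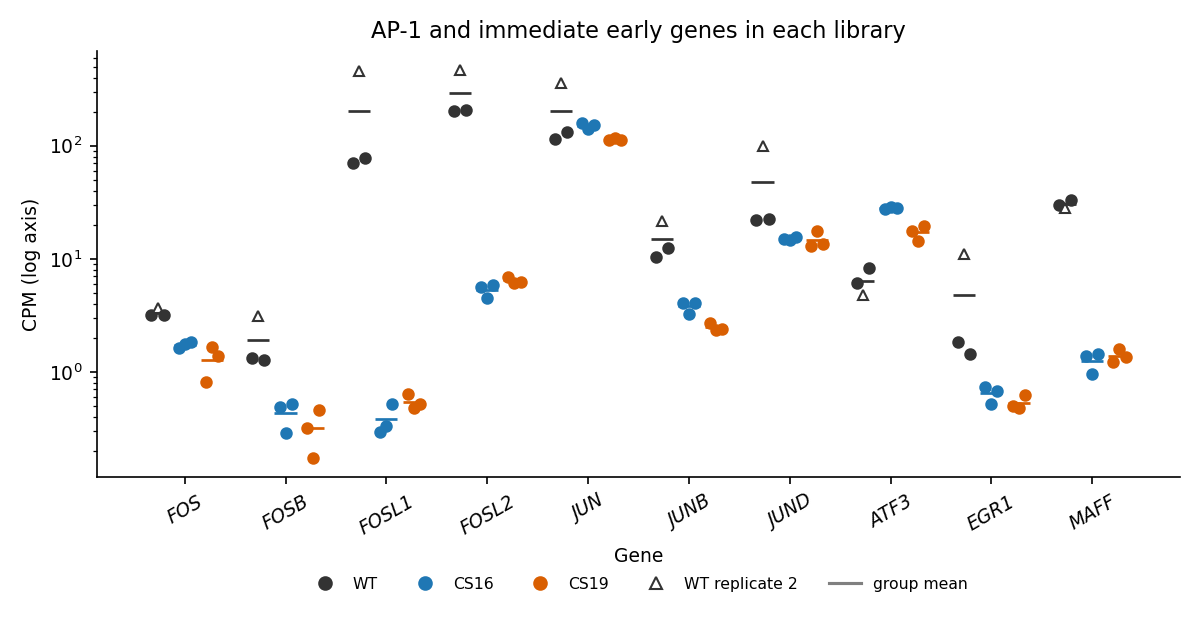
Level of each gene in each library, in CPM on a log axis; points are libraries, horizontal bars are group means, and the open triangle is WT replicate 2. *FOSL1*, *FOSL2* and *MAFF* are far lower in all 6 clone libraries than in every WT library, *ATF3* is higher, and *JUN* overlaps.

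*FOSL1* (GRCh38 chr11:65892049-65900573, like all gene positions below on the build of the files), which encodes FRA1, showed the strongest difference of the 10 genes. It had 70.1, 455 and 77.0 CPM in WT, 0.294, 0.334 and 0.517 CPM in CS16, and 0.636, 0.477 and 0.524 CPM in CS19. In raw counts, the WT libraries held 1421, 7975 and 1501 read pairs and the clone libraries between 6 and 16. The groups lay far apart, and every clone library was still above the limit of 3 counts. The log2 fold change was -8.73 ± 0.62 (SE, adjusted p = 2.4e-07) for both clones against WT, -8.97 ± 1.05 for CS16 and -8.48 ± 0.99 for CS19. WT replicate 2 was 6.19 times the mean of the other WT libraries, and without it the log2 fold change was -7.28 (adjusted p = 3.8e-11).

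*FOSL2* (chr2:28392448-28417317), which encodes FRA2, was also lower in the clones, at a higher remaining level. Its level was 204, 465 and 207 CPM in WT, 5.59, 4.53 and 5.89 CPM in CS16, and 6.95, 6.11 and 6.28 CPM in CS19. All clone libraries lay below all WT libraries, with little spread within each clone. The log2 fold change was -5.63 ± 0.27 (SE, adjusted p = 8.9e-09), and -5.12 without WT replicate 2.

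*FOS* (chr14:75278826-75282230) and *FOSB* (chr19:45467995-45475179), the rapidly induced members, were low in every library. *FOS* stood at 3.21, 3.65 and 3.18 CPM in WT, 1.62, 1.76 and 1.83 CPM in CS16, and 0.818, 1.65 and 1.38 CPM in CS19. It fell by 1.15 ± 0.26 (SE, adjusted p = 0.00219) on the log2 scale, without overlap between WT and the clones, and did not reach the fold cut-off. *FOSB* stood at 1.33, 3.14 and 1.28 CPM in WT and between 0.173 and 0.517 CPM in the 6 clone libraries, where it rested on 4 to 14 counts. It fell by 2.33 ± 0.39 (SE, adjusted p = 0.000281) on the log2 scale, and the log2 fold change was -1.78 without WT replicate 2.

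*JUN* (chr1:58776845-58784048), a partner that FOS proteins need, overlapped between WT and the clones. Its level was 113.97, 356.9 and 131.4 CPM in WT, 157.7, 141.4 and 153.1 CPM in CS16, and 111.2, 116.9 and 111.4 CPM in CS19. WT replicate 2 was the highest of all, while the other WT libraries lay among the clones. The difference between both clones and WT did not pass the test (log2 fold change -0.61 ± 0.31 SE, adjusted p = 0.108). Which WT library was left out decided both the direction and the call. Without WT replicate 1 *JUN* passed as lower (log2 fold change -0.89, adjusted p = 0.0262), as it did without WT replicate 3 (-0.81, adjusted p = 0.0492). Without WT replicate 2 the log2 fold change was 0.10 (adjusted p = 0.592) for both clones and 0.30 (adjusted p = 0.0143) for CS16, with *JUN* then higher in CS16.

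*JUNB* (chr19:12791486-12793315) and *JUND* (chr19:18279694-18281622), single-exon genes whose products are weaker activators than JUN, fell. *JUNB* had 10.4, 21.6 and 12.6 CPM in WT, 4.07, 3.24 and 4.06 CPM in CS16, and 2.73, 2.34 and 2.39 CPM in CS19. The groups did not overlap, and the log2 fold change was -2.24 ± 0.27 (SE, adjusted p = 2.02e-05), or -1.88 without WT replicate 2. Of its exon bases, 14.15% are shared with *HOOK2* on the opposite strand, and since strand was not used in counting, reads from the shared part cannot be assigned. *JUND* had 21.9, 98.7 and 22.4 CPM in WT, 14.9, 14.7 and 15.6 CPM in CS16, and 12.9, 17.5 and 13.45 CPM in CS19. WT replicate 2 stood at 4.46 times the mean of the other WT libraries, and these in turn were only slightly above the clones. *JUND* fell by 1.68 ± 0.40 (SE, adjusted p = 0.00298) on the log2 scale with all libraries, whereas the log2 fold change was -0.58 (adjusted p = 0.00186) without WT replicate 2.

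*ATF3* (chr1:212565334-212620777), a stress-induced bZIP factor that can repress as a homodimer, was the one gene of the 10 that rose. It had 6.17, 4.74 and 8.37 CPM in WT, 27.7, 28.9 and 28.0 CPM in CS16, and 17.7, 14.4 and 19.3 CPM in CS19. Every clone library was above every WT library, and every CS16 library above every CS19 library. The log2 fold change was 1.82 ± 0.29 (SE, adjusted p = 0.000182) for both clones, 2.17 ± 0.24 for CS16 and 1.46 ± 0.26 for CS19. Without WT replicate 2 the value for both clones was 1.64.

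*MAFF* (chr22:38200767-38216507), a small MAF protein with a bZIP domain and no activation domain, had the smallest standard error of the 10 genes when both clones were compared with WT. It had 30.1, 28.3 and 33.4 CPM in WT, 1.37, 0.954 and 1.43 CPM in CS16, and 1.23, 1.60 and 1.34 CPM in CS19. WT replicate 2 did not stand out for this gene, and the gap between WT and the clones was wide against the spread in each. The log2 fold change was -4.53 ± 0.18 (SE, adjusted p = 2.34e-09) and moved to -4.58 without WT replicate 2. *MAFF* shares 5.81% of its exon bases with *PLA2G6* on the opposite strand.

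*EGR1* (chr5:138465479-138469303), a zinc-finger factor and not a bZIP protein, is the classical immediate early target of serum response factor, and its CArG boxes are printed above. It had 1.83, 10.96 and 1.44 CPM in WT, 0.735, 0.525 and 0.676 CPM in CS16, and 0.50, 0.477 and 0.622 CPM in CS19. The clones lay below all WT libraries, but WT replicate 2 was 6.72 times the mean of the other WT libraries. The log2 fold change was -2.99 ± 0.55 (SE, adjusted p = 0.000533) with all libraries and -1.46 (adjusted p = 0.000589) without WT replicate 2.

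Across all genes tested, 18.4% had a ratio of at least 2 between WT replicate 2 and the mean of the other WT libraries, and 46.3% in the bin with the highest GC content. Among the 10 genes it was 6, namely *FOSB*, *FOSL1*, *FOSL2*, *JUN*, *JUND* and *EGR1*. *MAFF*, with a GC content of 61.9%, had a ratio of 0.891, and *EGR1*, with 55.3%, had 6.72.

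Against WT, each clone was also tested in a fit of its own. These comparisons share the 3 WT libraries, so that they are not independent. In CS16, 5 genes were called lower (*FOSB*, *FOSL1*, *FOSL2*, *EGR1* and *MAFF*) and *ATF3* was called higher, against 15.3% and 11.8% of 18611 genes. In CS19, 6 genes were called lower (the same 5 and *JUNB*) and 0 higher, against 14.4% and 12.0% of 18935 genes. *JUNB* differed by a log2 fold change of -1.94 in CS16 and -2.54 in CS19, so that only the latter passed the fold cut-off. *JUND* lay just inside the threshold in both (adjusted p = 0.0495 in CS16 and 0.0485 in CS19), and passed it in neither once any 1 library of that clone was left out (adjusted p from 0.107 to 0.135 in CS16 and from 0.102 to 0.136 in CS19). *EGR1* in CS16 was likewise lost without any 1 CS16 library (adjusted p from 0.0564 to 0.0825), and in CS19 without replicate 1 or 2 (0.0564 and 0.0628). *FOS* in CS16, at an adjusted p of 0.014, went to between 0.0546 and 0.0684 without 1 CS16 library. With the replicate number as a block, the adjusted p in CS16 was 0.104 for *JUND*, 0.0584 for *EGR1* and 0.0643 for *FOS*. Without WT replicate 2, the CS16 calls were 3 lower and 0 higher and the CS19 calls 4 lower, and without CS16 replicate 2 the CS16 calls were 3 lower. Shares of all genes were not counted for these fits.

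**Figure D2:**
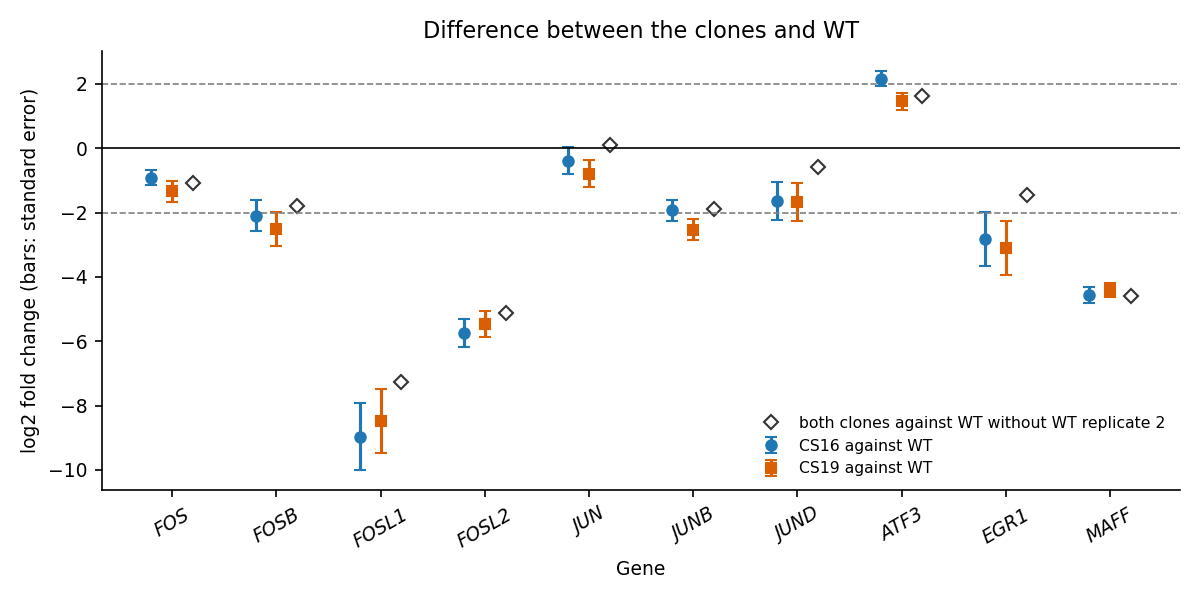
log2 fold change of each gene in CS16 (circles) and CS19 (squares) against WT, with standard errors from edgeR, and in both clones against WT without WT replicate 2 (open diamonds, no error shown). Dashed lines mark a log2 fold change of 2 in either direction. *FOSL1*, *FOSL2* and *MAFF* lie beyond -4 in every series. Without that library *FOSL1*, *JUND* and *EGR1*, among others, lie nearer to 0, and *JUN* lies just above 0.

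Between CS16 and CS19, 0 of the 10 genes passed both cut-offs, as did few of all genes (0.633% higher and 0.496% lower in CS16). On the adjusted p alone 3 were higher in CS16 and 0 lower, against 14.7% and 12.7% of 17538 genes. *ATF3* was higher in CS16 by a log2 fold change of 0.71 ± 0.11 (SE, adjusted p = 0.000247), *JUNB* by 0.61 ± 0.18 (adjusted p = 0.0259) and *JUN* by 0.41 ± 0.07 (adjusted p = 0.000399), and for each of these all 3 CS16 libraries lay above all 3 CS19 libraries. In a fit that shared its estimate of spread with the WT libraries, the adjusted p of these differences became 0.119, 0.379 and 0.745. *FOSL1* and *FOSL2* did not pass the test between the clones, with log2 fold changes of -0.49 ± 0.39 and -0.27 ± 0.15, although for *FOSL2* all 3 CS16 libraries lay below all 3 CS19 libraries. The share of all genes separated in this way between the clones was not counted.

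The genes can be ranked within a group by CPM per kilobase of exon (RPKM), which corrects for exon length. In WT the order by mean RPKM was *FOSL1* (106 ± 116.8, SD, n = 3), *JUN* (55.4 ± 37.4), *FOSL2* (40.8 ± 20.9), *JUND* (24.7 ± 22.9), *JUNB* (8.11 ± 3.25), *MAFF* (5.46 ± 0.46), *ATF3* (1.59 ± 0.45), *EGR1* (1.51 ± 1.72), *FOS* (1.05 ± 0.08) and *FOSB* (0.346 ± 0.191). Each neighbour overlapped the next in this order, except *MAFF* with *ATF3* and *FOS* with *FOSB*. Over WT replicates 1 and 3 alone the mean RPKM was 38.99 for *FOSL1*, 33.9 for *JUN*, 28.7 for *FOSL2*, 11.5 for *JUND* and 0.52 for *EGR1*, which then stood below *FOS* (1.003), and the other places were the same. In CS16 *JUN* led with 41.6 ± 2.3 RPKM (SD, n = 3), followed by *JUND* (7.81 ± 0.22), *ATF3* (6.98 ± 0.15), *JUNB* (2.07 ± 0.26), *FOSL2* (0.745 ± 0.099) and *FOS* (0.545 ± 0.034), each without overlap with the next. *MAFF*, *EGR1* and *FOSL1*, at 0.223, 0.206 and 0.202 RPKM, overlapped in this order, and *FOSB* was lowest. In CS19 the first 6 places were the same, from *JUN* (31.2 ± 0.9) to *FOS* (0.402 ± 0.133). *FOSL1*, first in WT, was thus ninth in CS16 and seventh in CS19, and *ATF3* moved from the seventh place to the third in both.

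The same values gave the makeup of the FOS and JUN families. The 4 FOS genes summed to 66.9, 308 and 70.9 RPKM in WT, to 1.53, 1.42 and 1.76 RPKM in CS16, and to 1.62, 1.65 and 1.67 RPKM in CS19. *FOSL1* made up 55.5%, 78.4% and 57.6% of this sum in WT, and between 10.2% and 20.8% in the clones. *FOS* made up at most 1.504% in WT and between 15.8% and 39.1% in the clones, although its own level was lower there. The 3 JUN genes summed to 48.4, 162 and 54.7 RPKM in WT, to 53.5, 48.4 and 52.5 RPKM in CS16, and to 38.8, 42.6 and 39.0 RPKM in CS19. Within this sum *JUN* made up 64.1% ± 2.7 (SD, n = 3) in WT, 80.8% ± 0.5 in CS16 and 77.8% ± 1.8 in CS19. These shares were not tested. The ratio of JUN to FOS genes, in summed RPKM, was 0.724, 0.524 and 0.772 in WT, between 29.8 and 34.9 in CS16, and between 23.4 and 25.8 in CS19. WT replicate 2 did not stand far from the other WT libraries in this ratio, in contrast to its levels.

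Genes around AP-1 were described by lists. Since they were picked with earlier results of these data known, their counts are descriptions beside the share of all genes (14.3% lower, 12.6% higher). That share was counted with all libraries only. Genes known as AP-1 targets had the lowest median of the 7 lists. In *SNAI1*-KO against WT, 34 of 40 could be tested, and 29 of these passed both cut-offs as lower and 1 as higher. Their median log2 fold change was -5.76, and without WT replicate 2 the counts were 28 and 1. The adhesion receptor gene *CD44* went from 664 ± 113.6 CPM (SD, n = 3) to at most 3 counts in every clone library, at least 5149-fold lower. The receptor tyrosine kinase gene *AXL* fell by 12.54 ± 0.37 (SE, adjusted p = 4.62e-10) on the log2 scale, and the collagenase gene *MMP1*, a textbook AP-1 target, was at least 58.7-fold lower. *HMGA1*, the list's most abundant gene per length in both clones, fell by 3.01 ± 0.36 (adjusted p = 1.74e-05) on the log2 scale, and the log2 fold change was -2.30 without WT replicate 2. In WT it led the list with all 3 libraries, but over WT replicates 1 and 3 the caveola gene *CAV1* led with 336.9 RPKM against 283 RPKM. *MMP2*, encoding gelatinase A, went the other way, from 0.205 ± 0.091 (SD, n = 3) to 5.37 ± 2.05 CPM (n = 6). *CD44*, *AXL* and others of the list are also MDA-MB-231 markers, and the part of a difference between cells in these values was not tested.

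Of 43 other immediate early genes, 40 could be tested. On the adjusted p alone 30 fell and 5 rose, against 32.6% and 31.1% of all genes. With both cut-offs 19 were called lower against 5 higher (17 and 5 without WT replicate 2), around a median log2 fold change of -1.83. *PLK2*, a stress-responsive polo-like kinase gene, fell by a log2 fold change of -5.82 ± 0.21 (SE, adjusted p = 1.26e-09), *SOCS3*, a feedback inhibitor of cytokine signaling, by -5.69 ± 0.29, and *IER3* by -5.52 ± 0.26. *CCN1*, a matricellular gene, fell from 465.9 ± 372.8 CPM (SD, n = 3) to 10.4 ± 2.7 CPM (n = 6), a log2 fold change of -5.48, or -4.59 without WT replicate 2. It was the most abundant of the list per length in WT with all libraries, whereas over WT replicates 1 and 3 it averaged 250.8 CPM (67.8 RPKM) and *PLK2* led with 107.7 RPKM. Like *ATF3*, the antiproliferative gene *BTG2* rose, from 0.818 ± 0.161 to 20.6 ± 3.8 CPM, as did the orphan receptor gene *NR4A1* from 1.02 ± 0.16 to 6.95 ± 0.43 CPM, and *RHOB*, a small GTPase gene, from 17.7 ± 3.7 to 99.0 ± 10.9 CPM. *MCL1*, most abundant of the list per length in both clones, had 415 ± 99 and 328 ± 14 CPM and did not pass the test (adjusted p = 0.0766), but without WT replicate 2 it passed as lower (log2 fold change -0.53, adjusted p = 0.000254).

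Among 29 other bZIP genes, 6 were called lower against 2 higher (5 and 2 without WT replicate 2), around a median log2 fold change of -1.14. *CREB3L1*, encoding a membrane-bound bZIP factor, fell by a log2 fold change of -7.22 ± 0.82 (SE, adjusted p = 1.19e-05). Its level was 17.9, 168.7 and 11.3 CPM in WT, and without WT replicate 2 its log2 fold change was -5.05. *CEBPD* fell by a log2 fold change of -4.49 ± 0.55 and *ATF5* by -2.52 ± 0.29. *BATF*, whose product pairs with JUN proteins, was at least 18.8-fold lower. *MAF*, a large MAF gene, did not exceed 3 counts in any WT library, and was at least 406-fold higher in the clones, where CS16 libraries averaged 38.4 ± 3.7 CPM and CS19 libraries 89.7 ± 3.4 CPM (SD, n = 3 each). *CREB5* rose by 3.47 ± 0.28 (adjusted p = 6.72e-07) and *ATF4*, the main factor of the integrated stress response and most abundant of the list per length in every group, by 1.87 ± 0.16 (adjusted p = 1.06e-06).

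Of 29 genes upstream of *FOS* and *JUN*, 3 were called lower against 1 higher, around a median log2 fold change of -0.50. On the adjusted p alone 15 fell and 6 rose, against 32.6% and 31.1% of all genes. The ternary complex factor gene *ELK3* fell by 3.12 ± 0.12 on the log2 scale (SE, adjusted p = 1.93e-09). *MAP2K3* changed by -2.45 ± 0.38 and *RPS6KA4* by -2.34 ± 0.25, but without WT replicate 2 by -1.42 and -1.76, so that 1 gene of the list was then called lower. *MAP2K6*, a p38 kinase activator, rose from 3.74 ± 0.42 CPM (SD, n = 3) to 41.7 ± 1.6 CPM (n = 6). The ERK gene *MAPK3* rose by 1.61 ± 0.19, *SRF*, also held by the list of immediate early genes, changed by -1.08 ± 0.22, and *NRAS*, the most abundant per length, did not pass the test (0.41 ± 0.27, adjusted p = 0.2).

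Of 18 repressors and degraders of AP-1 or its messages, 6 were called lower against 0 higher, around a median log2 fold change of -0.54. *DUSP4*, a nuclear phosphatase gene of ERK, fell by a log2 fold change of -7.01 ± 0.14 (SE, adjusted p = 1.19e-10), *DUSP6*, a cytoplasmic one, by -9.19 ± 0.35, and *SPRY4*, an inhibitor of RAS-ERK signaling, was at least 663-fold lower. *SIRT1*, the most abundant per length in the clones, rose by 1.19 ± 0.20 (adjusted p = 0.000228). *DUSP1*, induced by stress and serum, averaged 15.0 ± 1.4 CPM over the WT libraries, 19.7 ± 1.6 CPM over those of CS16 and 11.9 ± 1.3 CPM over those of CS19 (SD, n = 3 each). It did not pass the test for both clones against WT (adjusted p = 0.794) and was higher in CS16 than in CS19 (log2 fold change 0.72 ± 0.11 SE, adjusted p = 0.000238). Of 12 genes of stress and handling, 3 were called lower against 0 higher, around a median of -0.56. *HSPA1A* fell by 4.41 ± 0.46 while its near-identical copy *HSPA1B* rose by 1.28 ± 0.17, and reads of such copies may be split wrongly or lost. *TXNIP* changed by -3.43 ± 0.24 and *HSPB1* by -2.26 ± 0.32. Without WT replicate 2, *HSPB1* changed by -1.55, so that 2 genes of the list were then called lower. *HSPA8*, most abundant per length, did not pass the test (0.13 ± 0.20, adjusted p = 0.611).

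Among 14639 other genes with a symbol and a mean of at least 1 CPM, the one whose pattern over the 9 libraries was most like that of each gene was found by the root mean square difference of log2(CPM + 1), centred on each gene's mean. For *FOSL1* it was *CCDC9B* (difference 0.254), for *FOSL2* it was *ADAM8*, a metalloprotease gene of the target list (0.142), for *MAFF* it was *LIMCH1* (0.0903), and for *ATF3* it was *KBTBD6* (0.135). *ADAM8* had 124, 342 and 149 CPM in WT and between 3.05 and 6.04 CPM in the clones. *KBTBD6* had between 17.1 and 26.4 CPM in WT, between 97.0 and 110 CPM in CS16 and between 56.8 and 59.1 CPM in CS19. Its order of groups was that of *ATF3*, with CS16 highest and WT lowest, which follows from its choice by likeness of pattern. Over the 8 libraries without WT replicate 2, *LIMCH1* was again nearest to *MAFF* (0.0569), but *B3GALNT1* was nearest to *FOSL1* (0.07), *ETV4* to *FOSL2* (0.102) and *FAM89A* to *ATF3* (0.0834).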

How the data were processed

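Total RNA was depleted of ribosomal RNA and made into stranded, paired-end libraries. The authors trimmed reads with Trimmomatic 0.36, aligned them to GRCh38.p13 with STAR 2.7.2b and counted pairs with featureCounts (Subread 2.0.0) on gencode release 38, with a mapping quality of at least 30 and without regard to strand. The deposited values are raw counts per gene, 1 library per file. Without molecular identifiers, detection limits cover counting error only. Symbols were found for 99.60% of the genes.

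Counts were tested with edgeR 4.0.16 (filterByExpr, TMM, quasi-likelihood test, Benjamini-Hochberg adjustment) in R 4.3.3. SE is the log2 fold change divided by the root of the F statistic. CPM and RPKM were scaled by TMM, RPKM with the exon length in the files. Where all libraries of 1 side had at most 3 counts, a bound at 3 counts per library replaced the fold change. GC content came from the longest transcript in gencode release 44, for 99.79% of genes tested. Plots and sums were made in Python 3.11.15.

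Alternatives were DESeq2 1.42.0, RLE, no filter, a filter of 10 counts in 3 libraries, other fold cut-offs, a shared fit, a replicate block and leaving out each library. The counts over lists, levels per length and nearest genes without WT replicate 2 and the GC content were added after seeing the data. The steps were tested on simulated data. Members and lists were chosen with earlier results of these data known. Named from each list were up to 3 genes called in each direction with the largest change at a mean of at least 1 CPM, the most abundant per length, and genes of known direct role. *BATF*, *MMP1*, *MAPK3*, *SRF* and *DUSP1* were named for their roles, and *HSPA1B* after its values were seen. Some genes of the lists are counted in them but not reported here by name. Protein sequences, single exons and reads were not analysed here.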

Additional observations from a re-analysis of the deposited data

Results flagged for a closer look

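Between the clones, 4 of the 11 genes examined (the 10 and *SNAI1*) differed by edgeR's quasi-likelihood test with an adjusted p below 0.05. *JUN* was higher in CS16 by a log2 fold change of 0.41, *JUNB* by 0.61 and *ATF3* by 0.71, in 3 of 3 libraries each. *SNAI1* was lower in CS16 by a log2 fold change of -0.92 (adjusted p = 0.0106), in 3 of 3 libraries. None of these kept an adjusted p below 0.05 in the fit shared with WT, where the values for *JUN*, *JUNB*, *ATF3* and *SNAI1* were 0.745, 0.379, 0.119 and 0.271. Over the 6 clone libraries taken as 1 group, no library stood out from the others for any of the 11 genes. Groups of 3 were too small to be examined in this way, so that WT replicate 2 was described by its values alone.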

How the results depend on the processing

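TMM and RLE gave the same calls for all 10 genes. Leaving out 1 library at a time, the count of genes called lower ran from 3 to 7 for both clones against WT, from 3 to 6 for CS16 and from 4 to 7 for CS19, each lowest without WT replicate 2 (for CS16 also without CS16 replicate 2), and the count called higher from 0 to 1 for both clones (*ATF3*, without WT replicate 3) and from 0 to 1 for CS16. With no fold cut-off, 1 gene was higher in both clones and in CS19, 8 were lower in CS16, and 3 were higher in CS16 than in CS19. With a log2 fold change of at least 1, 1 gene was higher in both clones and 1 in CS19. The log2 fold change of *JUN* ran from -0.89 to 0.10 for both clones and from -0.67 to 0.30 for CS16, above 0 without WT replicate 2, and for both clones passing as lower without WT replicate 1 or 3. Between the clones, that of *JUND* ran from -0.026 (without CS19 replicate 1) to 0.20 and that of *MAFF* from -0.26 to 0.017 (without CS16 replicate 2), none of them passing the test. DESeq2 gave no adjusted p for 3 genes in both clones against WT (*FOSL1*, *JUND* and *EGR1*) and called 4 lower. No pairing by replicate number was seen. Same-numbered libraries deviated with correlations from -0.387 to 0.331, and differently numbered libraries with correlations from -0.347 to 0.373. With the replicate block, genes called lower in CS16 went from 5 to 3, *FOS*, *JUND* and *EGR1* no longer passed the adjusted p there, and *JUNB* no longer differed between the clones (adjusted p = 0.0544). With no filter, *SNAI1* passed as higher in both clones (log2 fold change 1.01, adjusted p = 0.0459), and *FOS* in CS16 no longer passed (adjusted p = 0.0656). The causes were not tested, and shares of all genes called were counted only for the main edgeR fits. Low counts limit *FOSB*, *FOSL1* and *EGR1* in the clones, where a few reads move the fold change.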
